A study of Mus musculus with 12 samples.

Results

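The transcription factors of the CREB and ATF6 family were examined in mouse liver at the level of mRNA. The 10 genes are Creb3l3, Creb3, Creb3l2, Atf6, Creb1, Crem, Atf1, Atf2, Atf7 and Creb5. They were taken by gene symbol, and all 10 were found among the 56748 genes that were counted. RNA-seq was run on whole livers of mice fasted for 24 h, with 4 livers in each of 3 genotypes. WT stands for controls that the labels give as floxed for CPT1A, CPT1B and CPT2, SKO for mice with a liver-specific KO of CPT2, and DKO for mice with a liver-specific double KO of ATF3 and CPT2. The KOs were made by crossing floxed mice to mice with Cre under the albumin promoter, which is active in hepatocytes. The study uses the term C57BL6 for the lines of its protein screen, which included the KO of CPT2. It describes the floxed Atf3 mice separately, as a consortium line that was first bred to Flpe deleter mice. Which cells of these livers lost the floxed genes was not measured. In the study's RT-qPCR of the double KO, the controls were mice with floxed Atf3 and Cpt2 alleles. This differs from the label of the WT livers used here. Cpt2 encodes the enzyme that completes the import of long-chain fatty acids into mitochondria for beta-oxidation, and Atf3 encodes a stress-inducible factor of the same wider CREB/ATF family. The design asks how these genes respond to the loss of hepatic fatty acid oxidation during a fast, and how they respond when Atf3 is removed as well. No source used here says that livers of a genotype came from separate litters or cohorts, so p-values measure the spread between these livers.

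The total count of a liver was 14710304 to 20030055, so that 3 counts, the limit for a gene without counts, corresponded to 0.150 to 0.204 CPM, counts scaled to the size of the library (counting error only). Cpt2 had 3658 to 4543 counts in WT livers, 1725 to 3098 in SKO livers and 1876 to 2468 in DKO livers. DKO replicate 4 was the DKO liver with 1876 counts. Atf3 had 34, 19, 17 and 39 counts in WT livers, 382, 1056, 565 and 259 in SKO livers and 164, 177, 265 and 5 in DKO livers. The deleted part of Atf3 is not given in the sources used here, so a count over the whole gene does not check the DKO label by itself, and in CPM DKO replicates 1 to 3 lay between the WT and the SKO livers. The study describes the mice of its RNA-seq as male, but SKO replicate 3 and DKO replicate 4 had 18063 and 20855 counts of Xist and at most 2 counts summed over Ddx3y, Eif2s3y, Kdm5d and Uty, which are on the Y chromosome. The other 10 livers had at most 19 counts of Xist and 2741 to 4294 Y-linked counts. DKO replicate 4 also stood apart from DKO replicates 1 to 3 in many genes. In DKO against WT the counts of calls and the fold changes given for members stand with and without that liver. SKO replicate 3 was the lowest SKO liver in Creb3, at 59.8 CPM, and in Creb5, at 2.44 CPM. DKO replicate 4 was the lowest DKO liver in both, at 38.2 and 0.266 CPM. A part of sex in these differences within a genotype was not tested.

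CREB and ATF proteins bind DNA as dimers through a basic leucine zipper, and many of them recognise the cyclic AMP response element (CRE). CREB1, CREM and ATF1 are activated through phosphorylation by protein kinase A, the route by which glucagon raises gluconeogenic genes in fasted liver. ATF2, ATF7 and the related CREB5 are phosphorylated by the stress kinases JNK and p38. ATF6 and the CREB3 proteins are held in the membrane of the endoplasmic reticulum and are released as active fragments by proteases of the Golgi, ATF6 during the unfolded protein response (UPR). CREBH, the product of Creb3l3, is made mainly in liver and intestine and raises genes of triglyceride clearance, fatty acid oxidation and fasting hormones. Activity of these proteins therefore depends on steps that mRNA levels do not show.

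Promoter windows of 300 bases, from 250 before to 50 after a start site, were taken from RefSeq (GRCm38.p6) for the 8 members with an entry, which together had 10 windows. Crem and Atf6 were not matched. Windows are shown for Creb5 and Creb3, the members with the largest fitted differences between genotypes, and for Creb3l3, the most abundant member. Capitals mark the CRE TGACGTCA and the C/EBP-ATF element TGATGNAA in the Creb5 window, at chr6:53287053-53287352 on the plus strand, and the CRE core TGACG in the Creb3l3 window, at chr10:81092542-81092841 on the minus strand. The Creb3 window, at chr4:43562408-43562707 on the plus strand, held none of the motifs searched and has no capitals.
Creb5: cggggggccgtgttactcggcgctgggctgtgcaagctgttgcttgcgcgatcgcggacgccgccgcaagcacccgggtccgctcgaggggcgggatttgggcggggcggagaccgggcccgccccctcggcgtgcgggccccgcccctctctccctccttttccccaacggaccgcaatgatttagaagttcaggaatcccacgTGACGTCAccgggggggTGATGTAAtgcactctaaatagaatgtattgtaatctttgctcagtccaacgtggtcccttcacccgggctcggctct
Creb3l3: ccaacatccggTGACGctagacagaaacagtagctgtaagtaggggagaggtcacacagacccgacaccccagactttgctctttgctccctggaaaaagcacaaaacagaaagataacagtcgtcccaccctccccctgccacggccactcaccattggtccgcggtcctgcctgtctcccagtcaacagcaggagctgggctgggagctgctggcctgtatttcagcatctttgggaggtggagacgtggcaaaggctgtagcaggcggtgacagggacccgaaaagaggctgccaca
Creb3: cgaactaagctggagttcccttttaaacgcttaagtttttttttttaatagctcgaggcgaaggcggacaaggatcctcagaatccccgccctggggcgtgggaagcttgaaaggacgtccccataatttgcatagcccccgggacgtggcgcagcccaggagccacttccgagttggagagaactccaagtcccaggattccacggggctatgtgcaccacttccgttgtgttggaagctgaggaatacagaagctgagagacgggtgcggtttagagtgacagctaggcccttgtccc
Both strands were searched for 5 motifs over all 32851 mouse windows. The CRE TGACGTCA was found in 1.79% of windows, and among the members' windows it occurred in Creb5, beginning 45 bases before the start site. Its core TGACG, which lies within the CRE, was found in 20.8% of all windows and in windows of Creb5, Creb3l2, Creb3l3 and Atf1. The element TGATGNAA, which ATF4 binds together with C/EBP factors, was found in 3.97% of all windows and in both Creb5 windows, beginning 28 bases before the start site in the window shown. The UPR elements TGACGTGG (0.676% of all windows) and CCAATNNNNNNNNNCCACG (0.119%) had no match in the members' windows. A match describes the letters of a window, and binding was not measured.

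Levels of different genes were compared in the deposited FPKM, which is scaled by gene length. Creb3l3 had by far the highest level, with 179 ± 18.4 FPKM (mean ± SD, n = 4) in WT livers, 226 ± 46.5 in SKO livers and 206 ± 15.7 in DKO livers. It made up 77.1%, 75.5% and 75.8% of the summed mean FPKM of the 10 members in these genotypes. Creb3 came next in each genotype, with 18.0 ± 1.37 FPKM in WT livers, 35.7 ± 9.38 in SKO livers and 28.4 ± 7.88 in DKO livers. Atf1 (9.71 ± 1.97) and Atf6 (9.59 ± 1.28) overlapped in WT livers. Atf2, Creb3l2, Crem and Atf7 followed with WT means of 3.22 to 4.22 FPKM, and neighbours in this order overlapped among livers. Creb1, which encodes the founding member of the family, had 1.57 ± 0.107 FPKM in WT livers. Creb5 was the lowest of the 10 in each genotype, and its gene length in the table, 25021 bases of exons, is the longest among the members. No member changed its rank when counts per kilobase were computed from the raw counts instead.

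**Figure D1:**
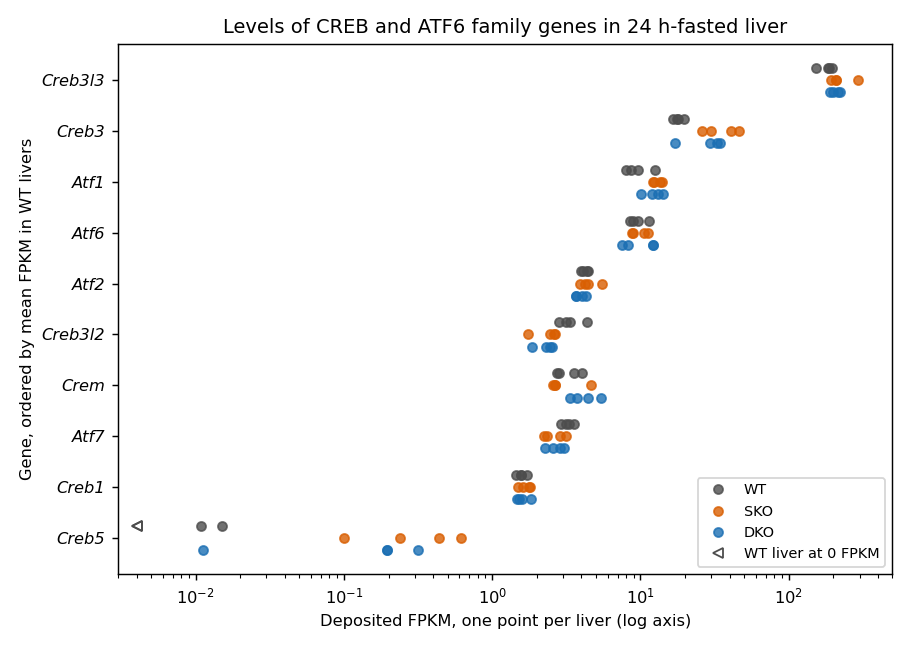
Deposited FPKM of the 10 genes on a log axis, 1 point per liver, coloured by genotype; the open triangle marks WT livers in which Creb5 is listed at 0. Creb3l3 lies between 152 and 295 FPKM in the 12 livers, above every other member, and Creb5 is the lowest.

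Creb5, Creb3 and Atf1 rose in SKO livers against WT livers and Creb3l2 fell, so that 4 of the 10 members passed the threshold of an adjusted p-value under 0.05, 3 higher and 1 lower. Of all 14261 genes tested in this comparison, 32.1% passed, 16.7% higher and 15.4% lower, so the members' share was near that of all genes. In 4 members, Creb3l3, Creb3, Creb5 and Creb3l2, the 4 SKO livers did not overlap the 4 WT livers in CPM, as was so for 33.2% of all genes. In DKO livers against WT livers, 0 of the 9 members tested passed in edgeR, while 10.5% of 14448 genes did, 6.06% higher and 4.39% lower. The DKO livers lay outside the WT range in Creb3l2, as was so for 16.8% of all genes. An unadjusted p-value under 0.05 was found for Creb3, Creb3l2 and Atf1, 3 of 9 beside 29.4% of all genes, and DESeq2 called Creb3 and Creb3l2, 2 of 9 beside 18.4% of all genes. When DKO replicate 4 was left out, 4 of 10 members passed, Creb5, Creb3 and Atf1 higher and Creb3l2 lower, and the share of all genes was then 35.9% of 14634, 18.4% higher and 17.5% lower, so the members' share was again near it. Creb5 passed the filter on low counts in that fit through the DKO livers alone, so its call there is partly set by the filter. Between DKO and SKO livers, 0 of the 10 members passed in edgeR or DESeq2 and 0 had an unadjusted p-value under 0.05. Of all 14363 genes, 0.0209% passed in edgeR and 6.49% had an unadjusted p-value under 0.05, and 0.68% passed in DESeq2. Without DKO replicate 4 it was again 0 of 10, beside 0.103% of 14589 genes. Both comparisons with WT share the same 4 WT livers, so their likeness is not independent.

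**Figure D2:**
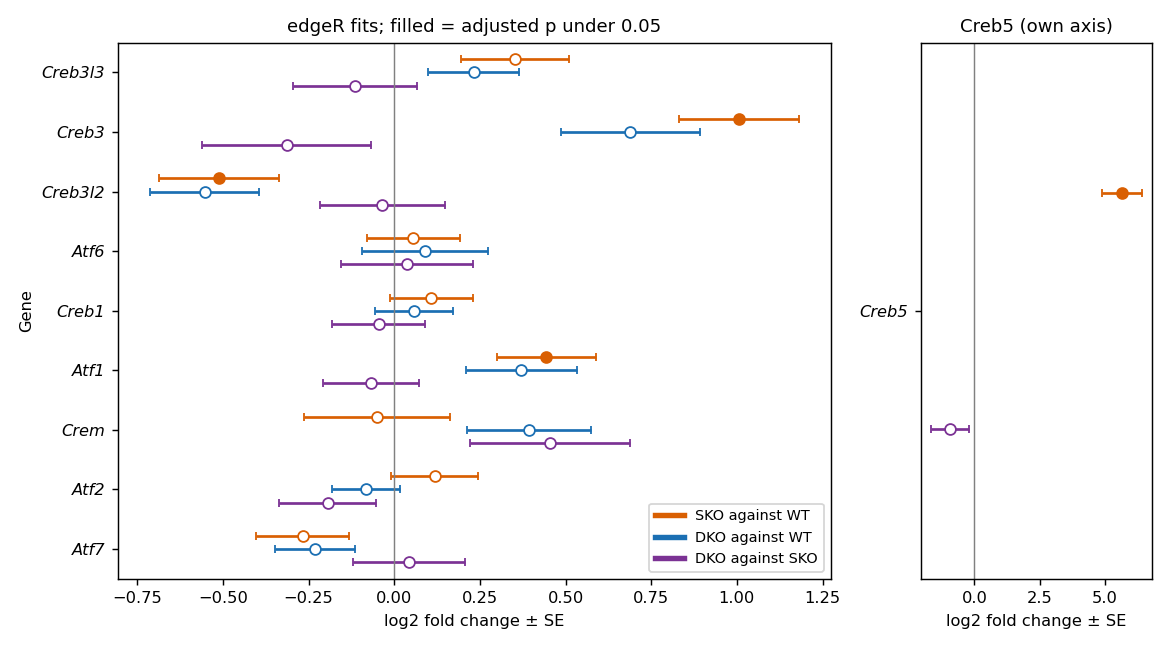
Log2 fold changes of the 10 genes, with bars of ± 1 SE, in the 3 comparisons; filled points passed an adjusted p-value under 0.05 and Creb5 has an axis of its own. The 4 filled points are Creb3, Creb3l2, Atf1 and Creb5 in SKO against WT, and Creb5 has no point in DKO against WT because it did not pass the filter on low counts there.

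Among the membrane-bound factors, Creb3 (ENSMUSG00000028466) rose the most. Its protein, also called Luman, is cleaved in the Golgi like CREBH and is known to control genes of secretory transport. Creb3 had 37.5, 45.0, 40.8 and 39.96 CPM (scaled by TMM) in WT livers, 68.9, 106, 59.8 and 93.7 in SKO livers and 78.5, 76.2, 68.2 and 38.2 in DKO livers. Each SKO liver lay above each WT liver, and DKO replicates 1 to 3 did as well, while DKO replicate 4 lay within the WT range. The log2 fold change was 1.01 ± 0.17 (SE) in SKO against WT (2.01-fold, adjusted p = 0.00107), and Creb3 passed in each of the 17 alternatives tried for this comparison. It was 0.69 ± 0.20 in DKO against WT (1.61-fold, adjusted p = 0.0584), and 0.87 ± 0.10 without DKO replicate 4 (adjusted p = 6.3e-05). The difference of DKO from SKO livers, -0.31 ± 0.25, did not pass (adjusted p = 0.900), nor did -0.13 ± 0.19 without DKO replicate 4 (adjusted p = 0.960). Creb3 overlaps Tln1, with 1585 to 2661 counts per liver, and Gba2, with 172 to 376, on the other strand. Whether the counting used strand is not given in the sources used here, and a part of these genes in the counts of Creb3 was not tested.

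Creb3l3 (ENSMUSG00000035041) was somewhat higher in SKO livers, but the difference did not pass. It had 441, 536, 530 and 559 CPM in WT livers, 565, 855, 610 and 609 in SKO livers and 624, 661, 554 and 564 in DKO livers. SKO replicate 2 lay far above the other SKO livers, and the lowest SKO liver exceeded the highest WT liver by only a few CPM. The log2 fold change was 0.35 ± 0.16 in SKO against WT (1.28-fold, unadjusted p = 0.0459, adjusted p = 0.112) and 0.23 ± 0.13 in DKO against WT (1.17-fold, adjusted p = 0.273), where the livers overlapped, or 0.25 ± 0.12 without DKO replicate 4 (adjusted p = 0.116). DKO livers differed from SKO livers by -0.11 ± 0.18 (adjusted p = 0.953). None of the 17 alternatives brought Creb3l3 past the threshold in any of the 3 comparisons.

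Creb3l2 (ENSMUSG00000038648), whose protein BBF2H7 is known for the secretory pathway of cartilage, fell. It had 22.1, 19.7, 30.1 and 23.4 CPM in WT livers, 17.5, 12.3, 18.4 and 19.0 in SKO livers and 17.2, 13.2, 16.3 and 17.6 in DKO livers. The SKO and DKO livers all lay below the lowest WT liver, by less than 1 CPM for the highest SKO liver. The log2 fold change was -0.51 ± 0.18 in SKO against WT (adjusted p = 0.0439). This call was lost without WT replicate 1 (adjusted p = 0.0613), WT replicate 3 (0.128), WT replicate 4 (0.0784), SKO replicate 1 (0.0664) or SKO replicate 2 (0.0932), and in limma voom with quality weights (0.0838). In DKO against WT it was -0.55 ± 0.16 (adjusted p = 0.0551), and -0.61 ± 0.16 without DKO replicate 4 (adjusted p = 0.0142). DKO livers differed from SKO livers by -0.03 ± 0.18, or by -0.098 ± 0.19 without DKO replicate 4.

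Atf6 (ENSMUSG00000026663), the UPR sensor itself, did not pass in any comparison. It had 74.96, 78.7, 100.02 and 85.0 CPM in WT livers, 101, 77.5, 79.0 and 94.8 in SKO livers and 109, 110, 67.5 and 71.7 in DKO livers. The 3 genotypes overlapped over most of their range, and the DKO livers fell into a higher and a lower pair. The log2 fold changes were 0.06 ± 0.14 in SKO against WT, 0.09 ± 0.18 in DKO against WT and 0.04 ± 0.19 in DKO against SKO. When DKO replicate 4 was left out the latter values were 0.18 ± 0.17 and 0.12 ± 0.19.

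**Figure D3:**
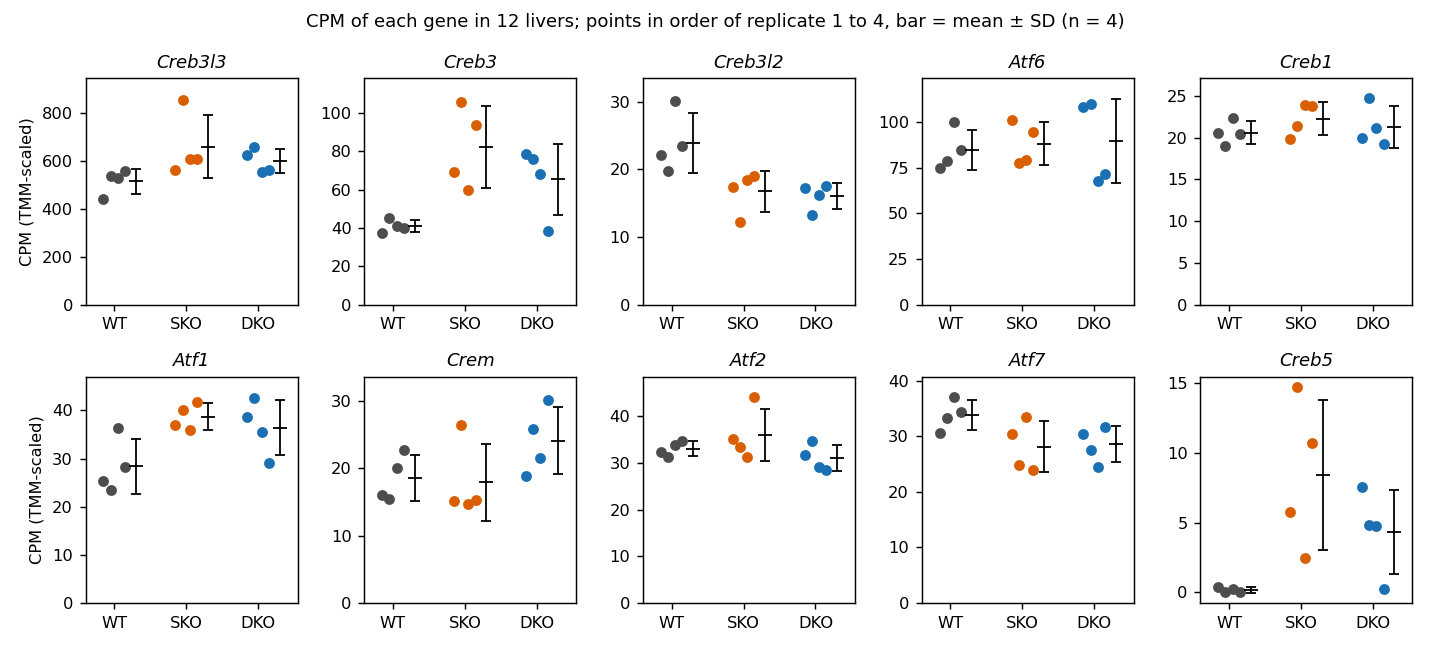
TMM-scaled CPM of each of the 10 genes in the 12 livers, in order of replicate 1 to 4 within a genotype, with black bars for the mean ± SD of 4 livers. Creb3 and Creb5 are higher in SKO livers and in DKO replicates 1 to 3 than in WT livers, while DKO replicate 4 lies at 38.2 CPM for Creb3 and 0.266 CPM for Creb5.

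Among the factors of protein kinase A signaling, Atf1 (ENSMUSG00000023027) rose modestly. It had 25.4, 23.5, 36.4 and 28.3 CPM in WT livers, 36.9, 40.1, 35.9 and 41.8 in SKO livers and 38.6, 42.5, 35.5 and 29.1 in DKO livers. WT replicate 3 was the one WT liver that overlapped the SKO livers. The log2 fold change was 0.44 ± 0.14 in SKO against WT (1.36-fold, adjusted p = 0.0355). The call was lost without WT replicate 1 (adjusted p = 0.116), WT replicate 2 (0.128), WT replicate 4 (0.0925), SKO replicate 2 (0.0625) or SKO replicate 4 (0.0766), in a fit over all 12 livers (0.0515), and with the replicate number as a block (0.0519). In DKO against WT it was 0.37 ± 0.16 (adjusted p = 0.162), and 0.46 ± 0.14 without DKO replicate 4 (adjusted p = 0.0299).

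Creb1 (ENSMUSG00000025958), the main CRE-binding activator, was even among the livers, with 19.0 to 22.4 CPM in WT livers, 19.9 to 24.0 in SKO livers and 19.2 to 24.8 in DKO livers. Its log2 fold change was 0.11 ± 0.12 in SKO against WT and 0.06 ± 0.11 in DKO against WT (0.096 ± 0.11 without DKO replicate 4), and none of these passed. Crem (ENSMUSG00000063889), which encodes activators as well as the inducible repressor ICER, had 16.0, 15.4, 19.97 and 22.6 CPM in WT livers, 15.1, 26.5, 14.8 and 15.2 in SKO livers and 18.9, 25.9, 21.5 and 30.2 in DKO livers. SKO replicate 2 lay far above the other SKO livers, which were nearly equal, and each genotype overlapped the others. Crem had the largest positive difference among the members in DKO against SKO, 0.45 ± 0.23 (1.37-fold, unadjusted p = 0.0796, adjusted p = 0.790), and this was 0.31 ± 0.22 without DKO replicate 4. In SKO against WT it was -0.05 ± 0.21 and in DKO against WT 0.39 ± 0.18 (adjusted p = 0.180), or 0.26 ± 0.16 without DKO replicate 4 (adjusted p = 0.243). The counts are per gene and do not separate ICER from the longer transcripts.

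In the group of ATF2, Creb5 (ENSMUSG00000053007) was the member with the largest difference. It had 7, 0, 4 and 0 counts in WT livers, 89, 288, 47 and 191 in SKO livers and 157, 79, 93 and 5 in DKO livers. In CPM these were at most 0.364 in WT livers, 5.78, 14.7, 2.44 and 10.7 in SKO livers and 7.57, 4.84, 4.73 and 0.266 in DKO livers. Each SKO liver exceeded each WT liver, as did DKO replicates 1 to 3, and DKO replicate 4 was at the WT level. The fitted log2 fold change in SKO against WT was 5.66 ± 0.77 (adjusted p = 0.000220), and its size depends on the prior count because WT livers were near 0. Creb5 passed the filter on low counts through the SKO livers alone, so its call in this comparison is partly set by the filter. It passed the threshold in each of the 17 alternatives, including the fit without the filter (5.68 ± 0.53, adjusted p = 5.5e-11). In DKO against WT it did not pass the filter. Without the filter the log2 fold change was 4.72 ± 0.86 (adjusted p = 0.00420), and without DKO replicate 4 it was 5.11 ± 0.60 (adjusted p = 8.4e-05). When a WT liver was left out, Creb5 passed the filter but not the threshold (adjusted p = 0.0574 to 0.0781). DKO livers differed from SKO livers by -0.94 ± 0.72 (adjusted p = 0.897), or by -0.54 ± 0.47 without DKO replicate 4 (adjusted p = 0.918), and the livers of both genotypes overlapped. Even in SKO livers the level was low, at 0.348 ± 0.225 FPKM, and which cells carried it was not measured.

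Atf2 and Atf7, the close relatives of Creb5, did not pass. Atf2 (ENSMUSG00000027104) had 31.3 to 34.7 CPM in WT livers, 31.2 to 44.1 in SKO livers and 28.4 to 34.6 in DKO livers, with a log2 fold change of 0.12 ± 0.13 in SKO against WT. Atf7 (ENSMUSG00000099083) had 30.6 to 37.1 CPM in WT livers, 23.9 to 33.5 in SKO livers and 24.4 to 31.7 in DKO livers. Its log2 fold changes were -0.27 ± 0.14 in SKO against WT (adjusted p = 0.157) and -0.23 ± 0.12 in DKO against WT (adjusted p = 0.219), or -0.29 ± 0.11 without DKO replicate 4 (adjusted p = 0.0629).

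Most genes known to be raised by ATF6 and the UPR were lower in SKO livers than in WT livers, although Atf6 itself did not pass. Of 20 such genes, 14 fell and 1 rose, with a median log2 fold change of -0.73 beside 0.03 over all genes tested, of which 15.4% fell and 16.7% rose. Among those with the smallest p-values were Edem1, which directs misfolded proteins to degradation (-1.28 ± 0.13, adjusted p = 3.2e-05), the chaperone Hyou1 (-1.08 ± 0.14, adjusted p = 0.000156), the co-chaperone Dnajb11 (-0.81 ± 0.12), Manf (-0.99 ± 0.14) and the lectin chaperone Calr (-0.99 ± 0.16). Hyou1 had 119 to 159 CPM in WT livers and 58.9 to 77.6 in SKO livers. The gene that rose was Ddit3, which encodes CHOP, a target of ATF4 as well (0.81, adjusted p = 0.0136). In DKO livers against WT livers 10 of the 20 fell and 0 rose, with a median of -0.86, while 4.39% of all genes fell. Without DKO replicate 4, 17 of the 20 fell and 1 rose, with a median of -1.08, while 17.5% of all genes fell. Leaving out any other liver gave 4 to 7 genes that fell. Manf (-1.38 ± 0.20, adjusted p = 0.00883), Derl3, Dnajb11, Sel1l and Hyou1 had the smallest p-values there, and Manf was at -1.48 without DKO replicate 4. Derl3 had 16 to 68 counts in WT livers and 3 to 7 in DKO livers, and it passed the filter on low counts through the WT livers alone. In DKO against SKO 0 of 19 passed, and the median was -0.05, or -0.19 without DKO replicate 4. Whole liver was sequenced, so fewer cells of a type and less RNA per cell cannot be told apart. Of 8 hepatocyte markers, 6 fell in SKO livers and 0 rose, and their summed level was 83873 to 103113 CPM in WT livers, 45527 to 72260 in SKO livers and 43926 to 105369 in DKO livers. DKO replicate 4 was the liver at 105369, and the other DKO livers reached 55029 CPM. On the means most of this sum was Alb, at 58977 CPM in WT livers, 31906 in SKO livers and 38492 in DKO livers. None of the 8 passed in DKO against WT, and without DKO replicate 4 there were 6 that fell and 0 that rose, while 17.5% of all genes fell. The part of this in the UPR genes was not tested.

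Genes known to be raised by CREBH divided into a few with large rises and a majority that did not pass. In SKO livers 5 of 13 rose and 1 fell, while 16.7% of all genes rose and 15.4% fell. Fgf21, a fasting hormone, had 2.50, 3.35, 5.66 and 1.43 CPM in WT livers, 50.2, 70.9, 62.8 and 105 in SKO livers and 81.0, 147, 173 and 24.8 in DKO livers. All 8 KO livers exceeded the WT livers. Its log2 fold change was 4.495 ± 0.37 in SKO against WT (adjusted p = 8.1e-06) and 5.06 ± 0.64 in DKO against WT (adjusted p = 0.00603), or 5.39 without DKO replicate 4. Apoa4, an apolipoprotein, had 820, 864, 373 and 408 CPM in WT livers, 8704, 16634, 7545 and 14518 in SKO livers and 8627, 10130.3, 8842 and 498 in DKO livers, where replicate 4 alone lay in the WT range. Its log2 fold change was 4.26 ± 0.38 in SKO against WT (adjusted p = 1.4e-05) and 3.52 ± 0.76 in DKO against WT (adjusted p = 0.0244), or 3.90 without DKO replicate 4 (adjusted p = 4.8e-06). Cidec, a lipid droplet protein, rose by 4.34 ± 0.20 on the log2 scale in SKO livers and by 3.76 ± 0.65 in DKO livers, or 4.14 without DKO replicate 4. Insig2, which holds back sterol synthesis, rose by 1.47 ± 0.37 in SKO livers and by 2.16 ± 0.44 in DKO livers, or 2.46 without DKO replicate 4. Cpt1a, the entry enzyme of mitochondrial fatty acid import, rose by 0.45 ± 0.14 in SKO livers (adjusted p = 0.0282), a call kept in 7 of 17 alternatives. The acute-phase gene Crp fell by 0.63 ± 0.13 in SKO livers (adjusted p = 0.00323). Apoa1, Apoa5, Apoc2, Apcs, Bdh1, Hamp and Ppara did not pass in either comparison with WT. In DKO livers 4 of 13 rose and 0 fell, while 6.06% of all genes rose. Without DKO replicate 4 there were 5 that rose, while 18.4% of all genes did, and 1 or 2 rose when any other liver was left out. The median log2 fold change of the 13 genes was 0.23 in SKO against WT and 0.17 in DKO against WT, the latter being 0.10 without DKO replicate 4. Between DKO and SKO livers 0 of 13 passed, with Apoa4 at -0.75 ± 0.67 and Fgf21 at 0.57 ± 0.47, and these were -0.36 and 0.89 without DKO replicate 4.

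Genes known to be induced by cAMP through CREB did not move in 1 direction. In SKO livers 2 of the 15 tested rose and 4 fell, with a median log2 fold change of -0.47. These 6 of 15 stand beside 32.1% of all genes, so the share was near the background. The gluconeogenic genes G6pc (-1.50 ± 0.32, adjusted p = 0.00414) and Pck1 (-0.91 ± 0.23, adjusted p = 0.0111) fell, as did the phosphodiesterase Pde4b (-1.91 ± 0.45), while Pde4d (1.56 ± 0.22, adjusted p = 0.000242) and the stress gene Gadd45b (1.85 ± 0.42) rose. Pck1 had 5667 to 7682 CPM in WT livers and 2045 to 4648 in SKO livers. Without SKO replicate 3 the number that fell was 7. In DKO livers Pde4d and Gadd45b rose and Dusp1 fell (-1.19 ± 0.29, adjusted p = 0.0354), 3 of 15 beside 10.5% of all genes. Without DKO replicate 4 there were 2 that rose and 5 that fell of 16, beside 35.9% of all genes. Leaving out any other liver gave 0 to 2 that rose and 0 to 2 that fell. In DKO against SKO 0 of 16 passed.

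**Figure D4:**
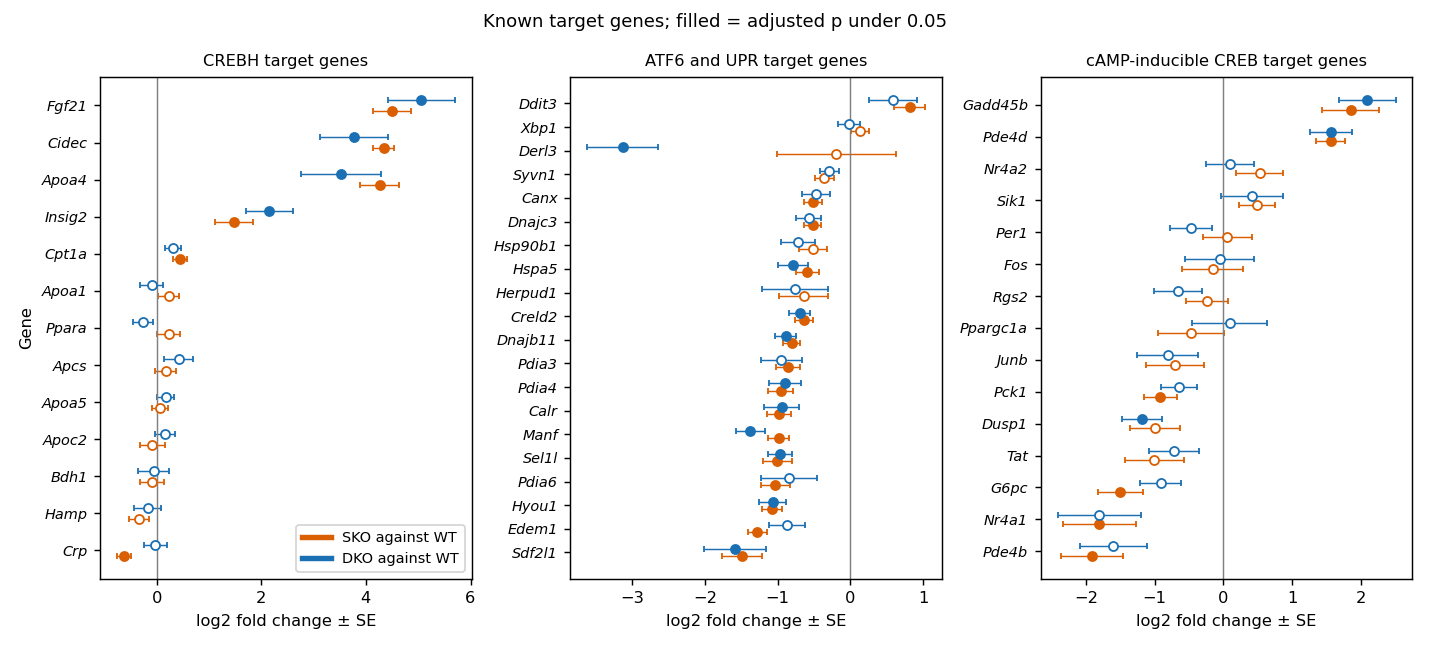
Log2 fold changes, with bars of ± 1 SE, of genes known as targets of CREBH (13 genes), of ATF6 and the UPR (20 genes) and of cAMP signaling through CREB (15 genes) in SKO and DKO livers against WT livers; filled points passed an adjusted p-value under 0.05. Most UPR genes lie below 0, with medians of -0.73 and -0.86, while Fgf21, Cidec, Apoa4 and Insig2 lie far above 0 among the CREBH targets.

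The enzymes that activate these factors were mostly within the spread of the livers. Neither of the Golgi proteases Mbtps1 and Mbtps2, which cleave ATF6 and the CREB3 proteins, passed (log2 fold changes of -0.08 ± 0.13 and 0.33 ± 0.19 in SKO against WT). Of 12 kinase and coactivator genes of the cAMP route, 1 fell in SKO livers, Prkaca, the catalytic subunit of protein kinase A (-0.65 ± 0.11, adjusted p = 0.00107), while 2 fell without SKO replicate 1 or 4 and 3 fell in DESeq2. The share of all genes called was 32.1%. Prkaca had 57.6 to 69.7 CPM in WT livers, 38.6 to 42.9 in SKO livers and 37.7 to 51.0 in DKO livers. In DKO livers Prkaca (-0.53 ± 0.13, adjusted p = 0.0338) and Prkar2a (-0.57 ± 0.14) fell and the coactivator Crebbp rose (0.45 ± 0.11, adjusted p = 0.0314), 3 of 12 beside 10.5% of all genes. There were 2 that rose and 4 that fell without DKO replicate 4, beside 35.9% of all genes. Leaving out any other liver gave 0 or 1 gene that passed. Of 10 genes of the JNK and p38 kinases, Map2k6, which phosphorylates p38, fell by 4.13 ± 0.41 on the log2 scale in SKO livers (adjusted p = 2.8e-05) and by 3.15 ± 0.60 in DKO livers (adjusted p = 0.0177). The call in DKO livers was lost without WT replicate 1, WT replicate 2, DKO replicate 1 or DKO replicate 3, with adjusted p-values of at most 0.0559, and Map2k6 was at -4.02 on that scale when DKO replicate 4 was left out (adjusted p = 4.3e-05). It had 9.56 to 20.1 CPM in WT livers, 0.307 to 1.56 in SKO livers and 0.429 to 4.05 in DKO livers, so that the WT livers lay above all KO livers while the SKO and DKO livers overlapped. With 6 to 24 counts in SKO livers and 7 to 76 in DKO livers, against 174 to 335 in WT livers, Map2k6 passed the filter on low counts through the WT livers. The p38 gene Mapk14 fell (-0.52 ± 0.14) and Mapk13 rose (1.46 ± 0.36) in SKO livers. Mapk13 had 6 to 16 counts in WT livers and 20 to 42 in SKO livers, and it passed the filter on low counts through the SKO livers, so its call is partly set by the filter. The 3 of 10 called in SKO livers stand beside 32.1% of all genes. In DKO livers 1 of the 10 fell and 0 rose, beside 10.5% of all genes, and without DKO replicate 4 there were 3 that fell and 1 that rose, beside 35.9%, so the list was near the background. None of these genes passed in DKO against SKO.

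Other CREB and ATF genes gave the frame for the members. Of 8 tested, 4 rose and 1 fell in SKO livers, beside 32.1% of all genes. Atf3 rose the most (4.28 ± 0.40, adjusted p = 2.0e-05), followed by Atf5 (0.83 ± 0.17, adjusted p = 0.00360) and Atf4 (0.70 ± 0.14, adjusted p = 0.00346), which act in the integrated stress response, and by Crebzf (0.57 ± 0.14). Crebl2 fell (-0.55 ± 0.13, adjusted p = 0.00739), Atf6b, Crebrf and Creb3l1 did not pass, and Creb3l4 did not pass the filter on low counts. Atf4 had 77.1 to 87.9 CPM in WT livers, 117 to 175 in SKO livers and 138, 140, 138 and 69.8 in DKO livers. In DKO livers Atf5 (1.04 ± 0.25, adjusted p = 0.0317) and Crebzf (0.54 ± 0.12, adjusted p = 0.0245) rose, 2 of 8 beside 10.5% of all genes. Atf3 (2.38, adjusted p = 0.0796) and Atf4 (0.55, adjusted p = 0.111) did not pass in DKO against WT. When that comparison was run without DKO replicate 4, there were 4 that rose and 2 that fell, beside 35.9% of all genes, with Atf4 at 0.74 and Atf3 at 2.77 (adjusted p = 2.7e-05). Leaving out any other liver gave 0 calls. In DKO against SKO 0 of 8 passed, Atf3 included (-1.91 ± 0.73, adjusted p = 0.701).

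Genes with the profile most like that of 3 members were sought over the 12 livers among 13071 genes with a mean of at least 1 CPM, by the root mean square difference of log2 CPM after each gene was centred on its own mean. The nearest to Creb3 were Trim27 (0.113), Anp32b (0.121) and Cdc34 (0.123), against a range of 1.49 for Creb3 itself. Trim27 had 18.8 ± 1.16 CPM in WT livers, 35.0 ± 7.52 in SKO livers and 31.4 ± 8.34 in DKO livers. The nearest to Creb3l3 were Sap30l (0.0741), Anapc7 (0.0742) and Snrpb (0.0760). The nearest to Creb5 were the growth factor gene Nrg1 (0.617) and the noncoding RNA genes Snhg10 (0.619) and Gm2990 (0.814), against a range of 7.06 for Creb5. Nrg1 had 0.182 ± 0.207 CPM in WT livers, 5.84 ± 1.03 in SKO livers and 3.57 ± 2.00 in DKO livers. Without DKO replicate 4, Trim27, Anp32b, Nrg1, Snhg10 and Anapc7 were still among the 3 nearest, and the others were not.

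Markers of other cells were read beside the members. Of all genes, 32.1% passed in SKO against WT, 10.5% in DKO against WT and 35.9% in the latter without DKO replicate 4 (18.4% higher and 17.5% lower). Of 8 macrophage markers 1 rose in SKO livers, Cd68 (2.28 ± 0.28), and the summed level was 221 to 448 CPM in WT livers, 209 to 472 in SKO livers and 128 to 451 in DKO livers. DKO replicate 4 was the liver at 451, and the other DKO livers reached 202 CPM. None of these 8 passed in DKO against WT, and without DKO replicate 4 there were 6 that fell and 1 that rose, with a median log2 fold change of -1.08. Of 8 stellate cell markers 1 rose in SKO livers, Dcn (0.61 ± 0.14), with sums of 191 to 227, 263 to 353 and 245 to 308 CPM. Dcn alone had means of 116 CPM in WT livers, 178 in SKO livers and 156 in DKO livers, a large part of these sums. Of 4 cholangiocyte markers tested 2 fell in SKO livers, Spp1 and Sox9, with sums of 27.9 to 33.3, 7.41 to 14.4 and 9.60 to 31.1 CPM, where DKO replicate 4 was at 31.1 and the other DKO livers reached 18.7. No stellate cell marker passed in DKO against WT, with 1 that rose without DKO replicate 4. In the same comparison 1 cholangiocyte marker fell, and 2 fell without that liver. None of 6 endothelial markers and none of 2 lymphocyte markers tested passed in either comparison with WT, with or without DKO replicate 4. No marker was at 0 in all livers of a genotype. The part of these cells in the values of Creb5 and Creb3 was not tested.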

How the data were processed

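RNA-seq was run by Novogene on total RNA of 12 mouse livers. The authors deposited raw counts per Ensembl gene, without normalization, and FPKM, which equal the counts divided by gene length and by a library size of 0.854 to 1.13 times the total count (within 0.1% for all genes of at least 100 counts). The submitters' processing notes list HISAT2, GRCm38 and mm10. The counting program, the annotation and the use of strand are not given in the sources used here. Gene positions in the table lay within 1000 bases of GRCm38.p6 for 3.14% of 38992 genes matched by name, so none are printed. The deposited fold changes and p-values of the authors' own comparisons were not used.

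Genotypes were taken from the labels. Each pair of genotypes was fitted on its 8 livers with edgeR 4.0.16 in R 4.3.3 (TMM, filterByExpr, quasi-likelihood test, two-sided), with Benjamini-Hochberg adjustment over all genes tested and a threshold of 0.05. Standard errors were derived from the fitted log2 fold change and its test statistic. CPM were scaled by TMM over 12 livers. Ranks of levels used FPKM. Alternatives were DESeq2 1.42.0, limma 3.58.1 voom with sample quality weights (which changes both the test and the weight of each liver), RLE scaling, no filter, a filter of 1 CPM in 4 livers, a fit over 12 livers, a replicate block, only livers with Y-linked counts, Xist as a covariate and each liver left out, which were also applied to the lists after the data had been seen. Scripts were tested on simulated data. The closest replicates differed by more than sampling noise, so none was a copy.

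The members and the gene lists were chosen with earlier results of these data known. By the rule for named genes, the text names all 10 members, at most the 5 genes with the smallest p-values per list and comparison, any of the other CREB and ATF genes and CREBH targets, the 3 nearest genes of 3 members and genes that check the labels. Ddit3, which has 2 rows of which the one with more counts was used, and the hepatocyte marker Alb were named after their values were seen.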

Additional observations from a re-analysis of the deposited data

Results flagged for a closer look

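In groups of 4 livers, 2 of 30 values of a member in a genotype had 1 liver farther from the rest than Dixon's test at 95% allows, where chance gives about 1.5. Creb3l3 in SKO replicate 2 was 855 CPM, while the other SKO livers lay between 565 and 610. Crem in SKO replicate 2 was 26.5 CPM, while the other SKO livers lay between 14.8 and 15.2.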

How the results depend on the processing

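In SKO against WT, 4576 genes and 4 members passed, and leaving out 1 liver gave 3617 to 4711 genes and 2 to 4 members, with 2 without WT replicate 1, WT replicate 4 or SKO replicate 2. In DKO against WT, 1510 genes and 0 members passed. There DESeq2 called 2635 genes and 2 members, limma voom with quality weights for each liver 5882 and 3, the fit with Xist as a covariate 5168 and 3, and the fit of livers with Y-linked counts 5253 and 4, which leaves out DKO replicate 4. No filter gave 2 members and the fit over 12 livers 1. Leaving out 1 liver gave 244 to 5253 genes and 0 to 4 members. In DKO against SKO, 3 genes and 0 members passed, with 97 genes in DESeq2, 14 in limma voom, 35 without the filter, 21 with Y-linked livers and 9 with the Xist covariate. Leaving out 1 liver gave 0 to 15 genes and 0 members. Same-numbered livers had correlations of -0.387 to 0.106, so the replicate number does not pair them. The replicate block gave 691 genes in DKO against WT and 0 in DKO against SKO, 0 members in both, and 3 members in SKO against WT, where Atf1 had an adjusted p of 0.0519.

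Members that did not pass changed sign in some settings. Crem in SKO against WT became 0.037 with Y-linked livers and 0.034 with the Xist covariate, Atf1 in DKO against SKO 0.023 with limma voom, and Creb1 in DKO against SKO 0.026 with Y-linked livers. When 1 liver was left out, the range included both signs for Crem (-0.30 to 0.046) and Atf6 (-0.017 to 0.13) in SKO against WT, for Creb1 (-0.012 to 0.096) and Atf6 (-0.019 to 0.20) in DKO against WT, and for Creb3l3 (-0.18 to 0.033), Creb3l2 (-0.16 to 0.057), Atf1 (-0.14 to 0.014), Atf6 (-0.070 to 0.15) and Atf7 (-0.037 to 0.14) in DKO against SKO. The cause was not tested. No setting tried changed the sign of Creb3, Creb5, Creb3l2 or Atf1 against WT. The values of Creb5 in WT livers, at or near the limit of 3 counts, leave the size of its rise uncertain.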
